A study of Homo sapiens with 4 samples.

Results

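Amino acid transporters of the plasma membrane were examined as a set of 9 genes given by name, SLC7A5, SLC3A2, SLC7A11, SLC7A1, SLC7A3, SLC1A4, SLC1A5, SLC38A1 and SLC38A2. Their symbols were matched to 9 of the 60564 gene identifiers in the count files, and all 9 passed the filter on low counts that left 22555 genes for testing. RNA was sequenced from Elf1 cells, a naïve human embryonic stem cell (ESC) line and thus a single line, grown either adherent on Matrigel-coated plastic (2-D) or for 21 days inside a self-assembling scaffold of PEG polymers with thiol and acrylate ends (3-D). Each condition had 2 libraries, which the study calls independent biological replicates. Cells of both conditions received the same expansion medium with serum replacement, non-essential amino acids, 2-mercaptoethanol, FGF2, LIF and the inhibitors CHIR99021 (of GSK3) and, as the methods spell it, PD03296501, and had been taken off mouse feeders before encapsulation. The age of the 2-D cultures is not given in the sources used here.

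Cells take up amino acids through families of solute carriers. The heavy chain SLC3A2 pairs with a light chain, which within this set is SLC7A5 or SLC7A11. With SLC7A5 it forms the exchanger of large neutral amino acids known as LAT1. With SLC7A11 it forms the cystine and glutamate exchanger known as xCT, whose cystine feeds glutathione synthesis. SLC7A1 and SLC7A3 carry the cationic amino acids arginine and lysine, SLC1A4 and SLC1A5 exchange small neutral amino acids such as alanine, serine, cysteine and, for SLC1A5, glutamine, and SLC38A1 and SLC38A2 bring in glutamine and other neutral amino acids with sodium. Several of these genes are known targets of the transcription factor ATF4, which is translated when amino acids run short, and leucine that enters through LAT1 is sensed by the mTORC1 pathway.

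The conditions differed little for all 9 transporters, with log2 fold changes of 3-D over 2-D between -0.18 and 0.14. Of the 9, 1 rose (SLC7A5) and 3 fell (SLC3A2, SLC38A2 and SLC7A11) in 3-D, called by the quasi-likelihood test of edgeR at a Benjamini-Hochberg adjusted p under 0.05, taken over all genes tested. Over all genes tested, 7.90% were called, 4.54% as higher and 3.36% as lower in 3-D. Genes with many counts were called more often. Among the 3406 genes with at least the 6831 counts of SLC7A3 over the 4 libraries, 28.4% were called. They include all of the transporters but SLC1A4, and 4 of these 8 were called. The libraries of the conditions did not overlap for 7 of the 9 transporters, and they did not overlap for 50.5% of all genes. The median log2 fold change was -0.05 over the transporters and -0.000135 over all genes tested. Levels are given as CPM, counts relative to the size of the library, normalized by the TMM method of edgeR. In these bulk samples fewer cells with a transcript and less of it per cell cannot be told apart. The plot of the 9 genes by library shows these levels.

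**Figure D1:**
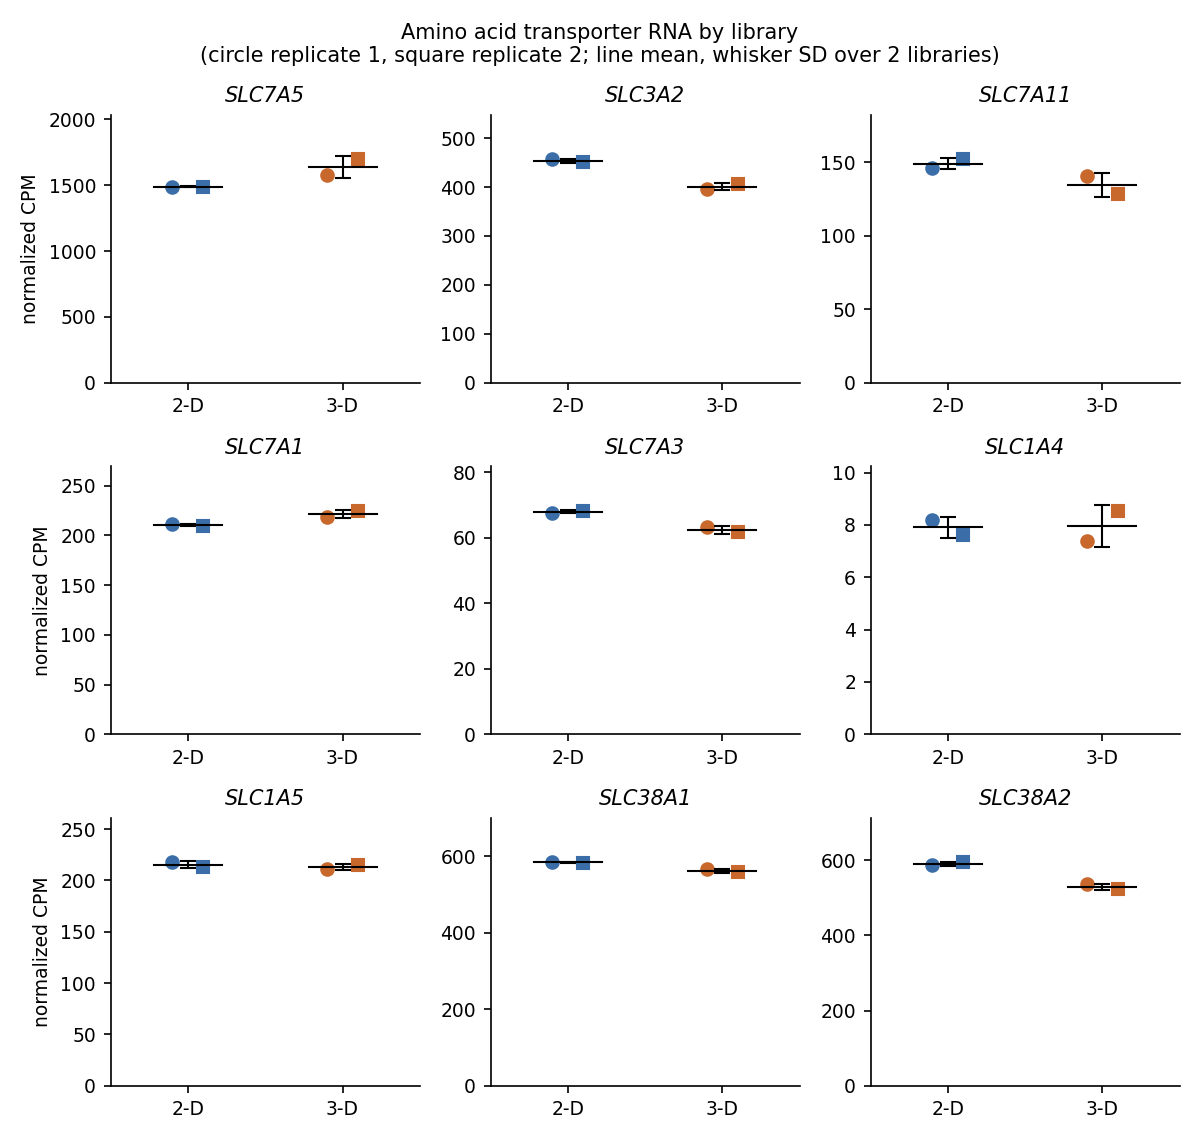
Normalized CPM (vertical axis, from 0) of each transporter in the 2 libraries of 2-D (blue) and the 2 of 3-D (orange) grown cells, with the mean as a line and the SD as a whisker. SLC7A5 was at or above 1486 CPM in every library and SLC1A4 at or below 8.53, and the 2-D and 3-D points overlapped only for SLC1A4 and SLC1A5.

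The libraries held 18276147 to 33833778 counts, with both 3-D libraries below both 2-D libraries. Mitochondrially encoded genes took 5.10 to 5.30% of the counts in 2-D and 8.33 to 8.50% in 3-D, and the 9 transporters together took 0.384 and 0.385% in 2-D and 0.361 and 0.375% in 3-D. Over all genes, 1024 were called higher and 758 lower in 3-D, and scaling by library size alone gave 514 and 1879. The 8 pluripotent cell markers summed to 4843 to 4877 CPM in 2-D and 4972 to 5145 in 3-D, with L1TD1 called higher. The 8 naïve state markers summed to 62.9 to 65.1 CPM in 2-D and 62.6 to 66.4 in 3-D, with TFCP2L1 highest at 22.1 to 23.8 CPM, DNMT3L, KLF4, SUSD2 and DPPA3 between 5.75 and 17.9, and KLF17, DPPA5 and ARGFX at or below 1.07 in every library. Of the 8 fibroblast markers, 2 (COL1A1 and COL3A1) were called higher in 3-D, and the 8 summed to 458 to 465 CPM in 2-D and 466 to 510.0 in 3-D. COL1A2 held 301 to 325 CPM and COL1A1 118 to 152, while DCN and LUM stayed below 1 CPM. Of the 6 fibroblast markers tested, 5 had a log2 fold change above 0, and the median was 0.24. The 8 neural ectoderm markers summed to 586 and 593 CPM in 2-D and 609.8 and 613 in 3-D, of which NES, also expressed by ESCs, held 577 to 602 CPM while PAX6, SOX1, ZIC1, OTX1 and NEUROG2 stayed at or below 1.004 CPM. The 8 mesoderm markers summed to 215.3 and 215.4 in 2-D and 227 and 229.9 in 3-D, of which KDR held 147 to 157 CPM. The endoderm markers summed to at most 12.2 CPM and the trophoblast markers to at most 4.80 CPM in any library, with TTR and CGA at 0. The part of these differences in the results on the transporters was not tested.

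SLC7A5, the light chain of LAT1, lies on chromosome 16 (hg38, chr16:87830023-87869507, minus strand) and had 4764 exon bases over all its annotated transcripts. Its RNA measured 1490.1 and 1486 normalized CPM in 2-D and 1580.0 and 1695 in 3-D, so both 3-D libraries were above both 2-D libraries. The log2 fold change was 0.14 ± 0.04 (SE), an increase of 10.04%, with a 95% interval of 0.06 to 0.21 and an adjusted p of 0.0311 by edgeR. The 3-D libraries differed from each other by 0.10 on the log2 scale, against 0.01 for counting error alone, while the 2-D libraries differed by -0.0037. Without 3-D replicate 2 the log2 fold change was 0.09 (adjusted p = 0.0125), and without 2-D replicate 1 or 2 the adjusted p was 0.0558 and 0.0913. Scaled by library size alone it was 0.07 (edgeR adjusted p = 0.250), and the likelihood ratio test of edgeR gave an adjusted p of 0.217.
The promoter of SLC7A5 is shown because it holds a match to a searched motif at the start site itself (RefSeq, GRCh38.p14, chr16:87869458-87869757, minus strand, 80.3% G or C). The capitals mark TGACNNNGC, the core of the antioxidant response element bound by NRF2, read on the gene's own strand from position -2. Here and below the start site is position 1, and no position 0 is used.
SLC7A5: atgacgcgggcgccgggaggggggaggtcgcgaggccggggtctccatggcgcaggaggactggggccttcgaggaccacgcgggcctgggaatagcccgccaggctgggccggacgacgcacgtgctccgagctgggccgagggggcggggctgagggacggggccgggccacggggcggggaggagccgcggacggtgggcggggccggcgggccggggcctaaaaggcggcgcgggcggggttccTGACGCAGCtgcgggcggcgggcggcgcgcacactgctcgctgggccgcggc

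SLC3A2, the heavy chain that both SLC7A5 and SLC7A11 need to reach the plasma membrane, lies on chromosome 11 (hg38, chr11:62856004-62888880, plus strand). It fell in 3-D grown cells. Its RNA measured 456 and 451 normalized CPM in 2-D and 396 and 406 in 3-D, and the lowest 2-D library was above the highest 3-D library. The log2 fold change was -0.18 ± 0.03 (SE), with a 95% interval of -0.24 to -0.11 and an adjusted p of 0.00326 by edgeR, and the level fell by 11.6%. Replicates differed by -0.02 on the log2 scale in 2-D and by 0.04 in 3-D, less than the difference between conditions. SLC3A2 was called lower under all 15 alternative settings, with log2 fold changes between -0.24 and -0.16.
SLC3A2 has 3 promoter windows in RefSeq (GRCh38.p14), of which only the one at chr11:62881449-62881748 (plus strand, 62.7% G or C), inside the gene, held the searched motifs. It is shown because it holds both. The first run of capitals, from position -37, is the antioxidant response element core, and it includes TGACTCA, the motif of AP-1. The second, from position 38, is TGATGNAA, the amino acid response element bound by ATF4 with C/EBP partners, read on the opposite strand.
SLC3A2: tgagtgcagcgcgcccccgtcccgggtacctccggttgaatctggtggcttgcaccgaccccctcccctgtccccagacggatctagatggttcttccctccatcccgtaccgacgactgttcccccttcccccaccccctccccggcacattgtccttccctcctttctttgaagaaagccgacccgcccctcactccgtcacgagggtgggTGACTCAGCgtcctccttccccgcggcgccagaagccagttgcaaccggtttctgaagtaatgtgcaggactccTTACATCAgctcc

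SLC7A11, the light chain of xCT, lies on chromosome 4 (hg38, chr4:138164097-138242349, minus strand). Its RNA measured 146 and 152 normalized CPM in 2-D and 140.3 and 129 in 3-D, so the 3-D libraries were both lower, by a narrow gap. The log2 fold change was -0.15 ± 0.04 (SE), with a 95% interval of -0.23 to -0.06 and an adjusted p of 0.0402 by edgeR, and the level fell by 9.71%. The 3-D libraries differed from each other by -0.13 on the log2 scale, about the size of the difference between conditions and above the 0.04 of counting error. Without 3-D replicate 2 the log2 fold change was -0.08 and the edgeR adjusted p 0.0997, and without 2-D replicate 2 the edgeR adjusted p was 0.239. DESeq2 gave an adjusted p of 0.111.

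**Figure D2:**
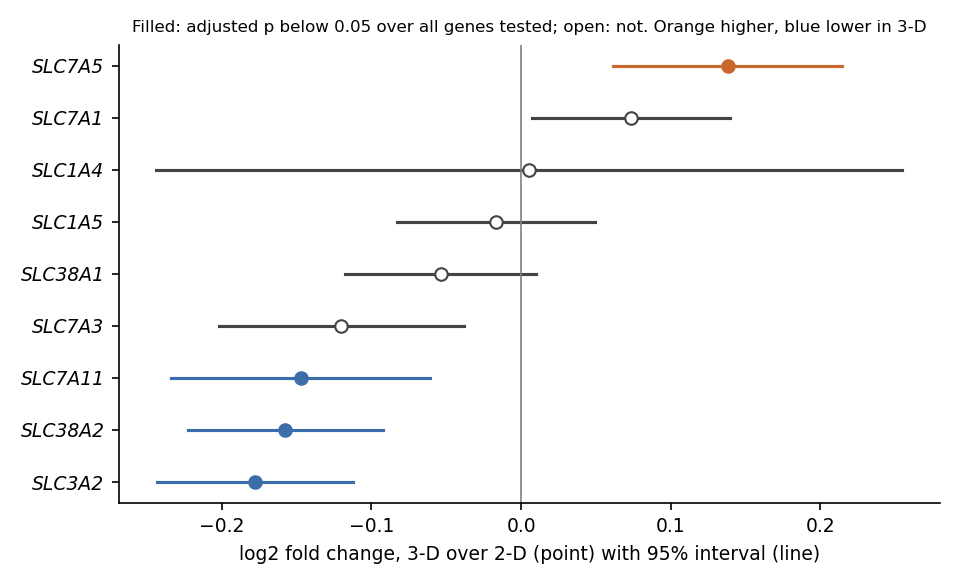
Log2 fold change of 3-D over 2-D (horizontal axis) of each transporter with its 95% interval from edgeR's quasi-likelihood fit. Filled points (SLC7A5 in orange, SLC3A2, SLC38A2 and SLC7A11 in blue) had an adjusted p below 0.05, and SLC1A4, with the fewest counts, had the widest interval, -0.24 to 0.25.

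The glutamine transporters of the SLC38 family lie near each other on chromosome 12. SLC38A2, known as SNAT2, is the member that cells are known to raise when amino acids are withdrawn (hg38, chr12:46358188-46372773, minus strand). Its RNA measured 587 and 594 normalized CPM in 2-D and 536 and 524 in 3-D. Both 3-D libraries were below both 2-D libraries, with a log2 fold change of -0.16 ± 0.03 (SE), a 95% interval of -0.22 to -0.09 and an adjusted p of 0.00654 by edgeR, and the level fell by 10.3%. The call was lost in edgeR's likelihood ratio test (adjusted p = 0.0700) and without 2-D replicate 2 (adjusted p = 0.0825). SLC38A1, known as SNAT1 (chr12:46183063-46270017, minus strand), measured 584 and 583 normalized CPM in 2-D and 566 and 559 in 3-D. Its libraries did not overlap either, but the log2 fold change was only -0.05 ± 0.03 (SE), with an interval of -0.12 to 0.01 and an adjusted p of 0.329 by edgeR. Scaled by library size alone it was -0.12 (edgeR adjusted p = 0.0227).
The promoter of SLC38A2 (RefSeq, GRCh38.p14, chr12:46372724-46373023, minus strand, 72.0% G or C) is shown beside those of SLC7A5 and SLC3A2 as that of a called gene in which neither motif was found in the window.
SLC38A2: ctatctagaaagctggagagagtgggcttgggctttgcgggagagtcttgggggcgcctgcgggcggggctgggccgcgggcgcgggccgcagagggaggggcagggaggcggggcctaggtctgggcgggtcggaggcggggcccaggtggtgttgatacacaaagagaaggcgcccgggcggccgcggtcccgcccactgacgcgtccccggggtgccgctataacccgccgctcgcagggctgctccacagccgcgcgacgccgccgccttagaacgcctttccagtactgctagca

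Neither of the cationic amino acid transporters was called. SLC7A1, known as CAT1 (hg38, chr13:29509414-29595688, minus strand), measured 211 and 210.0 normalized CPM in 2-D and 218 and 225 in 3-D. Its 3-D libraries were both higher, with a log2 fold change of 0.07 ± 0.03 (SE), an interval of 0.01 to 0.14 and an adjusted p of 0.181 by edgeR. Without 3-D replicate 1 the log2 fold change was 0.10 and the edgeR adjusted p 0.0196. SLC7A3, known as CAT3 (chrX:70925579-70931125, minus strand), measured 67.5 and 68.2 normalized CPM in 2-D and 63.3 and 61.6 in 3-D. Its 3-D libraries were both lower, with a log2 fold change of -0.12 ± 0.04 (SE), an interval of -0.20 to -0.04 and an adjusted p of 0.0754 by edgeR, and scaled by library size alone it was -0.18 (edgeR adjusted p = 0.00917).

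The promoter of SLC7A1 (RefSeq, GRCh38.p14, chr13:29595639-29595938, minus strand, 82.0% G or C) is shown because it also holds both motifs in 1 window, both on the gene's own strand. The capitals mark the antioxidant response element core from position -85 and the amino acid response element from position 8.
SLC7A1: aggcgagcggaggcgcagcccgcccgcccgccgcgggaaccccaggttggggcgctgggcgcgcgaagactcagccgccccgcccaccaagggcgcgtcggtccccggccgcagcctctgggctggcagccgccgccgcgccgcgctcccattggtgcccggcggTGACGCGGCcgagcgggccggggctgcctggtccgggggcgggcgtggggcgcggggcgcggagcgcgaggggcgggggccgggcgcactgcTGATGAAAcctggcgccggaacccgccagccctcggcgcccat

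Neither transporter of small neutral amino acids was called. SLC1A5, known as ASCT2 (hg38, chr19:46774883-46788594, minus strand), measured 218 and 213 normalized CPM in 2-D and 211 and 215 in 3-D. The libraries of the conditions overlapped, and the log2 fold change was -0.02 ± 0.03 (SE) with an interval of -0.08 to 0.05 (edgeR adjusted p = 0.818). SLC1A4, known as ASCT1 (chr2:64988477-65023865, plus strand), measured 8.19 and 7.63 normalized CPM in 2-D and 7.40 and 8.53 in 3-D, from 152 to 282 counts a library. Its log2 fold change was 0.01 ± 0.11 (SE) with an interval of -0.24 to 0.25 (edgeR adjusted p = 0.987), and its sign turned under 5 of the 15 alternatives, among them scaling by library size alone (-0.06). A change of about the size seen for SLC7A5 was not detectable for SLC1A4 at this depth.

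Levels of the 9 genes were compared as normalized CPM per kb of exon, the exons of all annotated transcripts being merged. Order on this scale, also within the lists below, depends on these merged lengths. They can exceed the length of the transcripts expressed, which were not examined. SLC7A5 was the highest in every library, at 312 ± 0.561 (SD) in 2-D and 344 ± 17.1 in 3-D, and its mean over the 4 libraries, 328 CPM per kb, was above that of 99.6% of the 14305 protein-coding genes tested. SLC38A2 followed with a mean of 86.1 CPM per kb, 3.81 times lower than SLC7A5. SLC3A2 and SLC1A5 came next with means of 66.8 and 64.2 CPM per kb and did not keep an order. SLC3A2 was above SLC1A5 in both 2-D libraries and below it in both 3-D libraries. In CPM, not divided by length, SLC3A2 was above SLC1A5 in every library. SLC38A1 had a mean of 57.2 CPM per kb.

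The cationic transporters did not keep an order either. SLC7A3 measured 29.8 and 30.1 CPM per kb in 2-D and 27.9 and 27.2 in 3-D, while SLC7A1 measured 27.5 and 27.3 in 2-D and 28.4 and 29.2 in 3-D. On this scale SLC7A3 was thus the higher of the pair in 2-D and SLC7A1 in 3-D. The switch depends on the merged exon lengths, 2268 bases for SLC7A3 and 7688 for SLC7A1. In CPM, SLC7A1 was the higher in every library. SLC7A11 had a mean of 14.7 CPM per kb. SLC1A4, with 1.14 CPM per kb, was 12.8 times below SLC7A11 and was the only transporter under the median of 3.95 CPM per kb over the protein-coding genes tested.

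Ratios of 2 transporters within a library do not depend on the scaling between libraries. Their size depends on the merged exon lengths, 4764 bases for SLC7A5 and 6392 for SLC3A2. The change of a ratio of 2 genes between conditions does not, as the lengths are the same in every library. The level per kb of SLC7A5 was 4.38 and 4.42 times that of its heavy chain SLC3A2 in 2-D and 5.35 and 5.61 times in 3-D. The ratio was thus 1.24 times as high in 3-D (0.31 on the log2 scale), with SDs of 0.01 in 2-D and 0.05 in 3-D. Summed over SLC7A5 and SLC7A11, the ratio to SLC3A2 was 4.59 and 4.65 in 2-D and 5.59 and 5.81 in 3-D. Other light chains, such as SLC7A8 (22.7 CPM per kb) and SLC7A6 (10.01 CPM per kb), were not in this sum. The ratio of SLC7A11 to SLC3A2 was 0.212 and 0.223 in 2-D and 0.235 and 0.210 in 3-D, and the conditions overlapped.

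The ratio between the light chains SLC7A5 and SLC7A11 was higher in both 3-D libraries as well. The ratio of SLC7A5 to SLC7A11 was 20.6 and 19.8 in 2-D and 22.8 and 26.7 in 3-D, a log2 difference of 0.29 with 3-D libraries that differed widely from each other. SLC7A1 over SLC7A3 went from 0.922 and 0.909 to 1.02 and 1.08 (log2 difference 0.19), and SLC38A1 over SLC38A2 from 0.647 and 0.638 to 0.687 and 0.693 (0.10). SLC1A4 over SLC1A5 overlapped between conditions (0.02). With 2 libraries against 2, the exact two-sided permutation test gave p = 0.333, the smallest it allows, for each of the 4 ratios that did not overlap and p = 1 for the other 2, with Benjamini-Hochberg values of 0.5 and 1 over the 6 pairs.

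**Figure D3:**
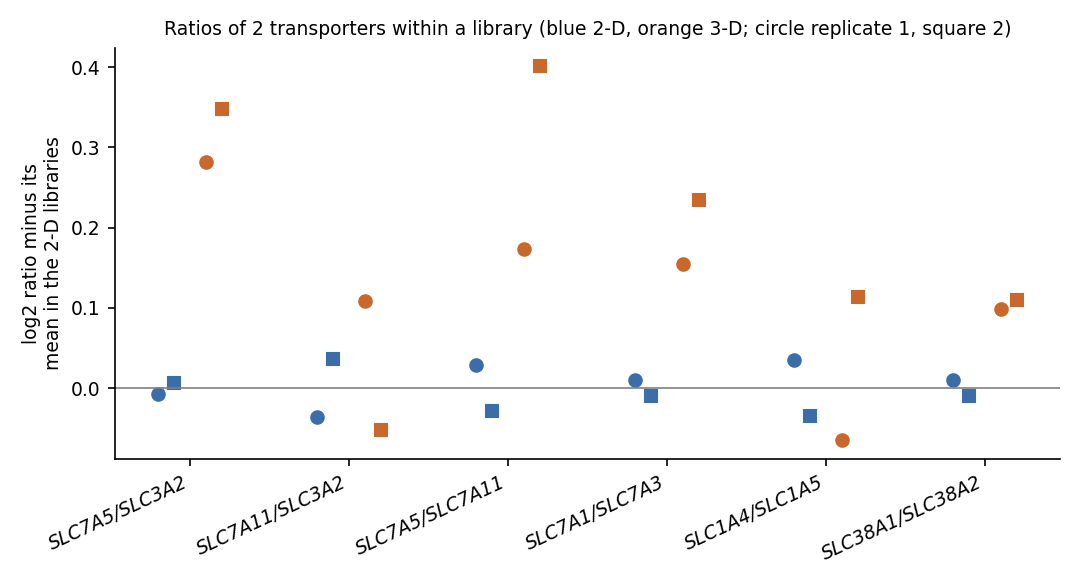
Log2 ratio of 2 transporters (normalized CPM per kb) in each library minus the mean of that ratio in the 2-D libraries (vertical axis), for 6 pairs, with 2-D in blue and 3-D in orange. The 3-D libraries lay above the 2-D libraries for 4 pairs, most widely for SLC7A5 over SLC3A2, and overlapped them for SLC7A11 over SLC3A2 and SLC1A4 over SLC1A5.

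Other genes share bases with some of the transporters. A long noncoding RNA on the opposite strand within SLC7A5, ENSG00000260466, shares 271 of the 4764 exon bases of that gene (5.69%). It held 3341 and 3145 counts in 2-D and 2527 and 2306 in 3-D, a log2 fold change of 0.34 ± 0.04 (SE, edgeR adjusted p = 1.57e-04), higher in 3-D as SLC7A5 was. SLC7A11-AS1 shares 865 of the 9645 exon bases of SLC7A11 (8.97%), held 284 to 650 counts a library and had a log2 fold change of -0.17 (edgeR adjusted p = 0.240). ENSG00000275719 shares 780 of the 3332 exon bases of SLC1A5 (23.4%), held 827 to 1844 counts and had a log2 fold change of -0.16 (edgeR adjusted p = 0.0990).

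SLC38A2-AS1 shares no exon base with SLC38A2 and had a log2 fold change of 0.10 (edgeR adjusted p = 0.880). A strand setting of the counting is not given in the sources used here, so reads of a transporter and of the gene opposite to it cannot be told apart where they overlap. The longest transcript of each transporter had no near-identical copy elsewhere in hg38 (at least 80% of its length with at least 98% identity). That of SLC7A5 matched its pseudogenes SLC7A5P1 and SLC7A5P2 over 13.7% of its length each, with 95.8 and 94.8% identity. SLC7A5P1 held 67 to 119 counts a library and SLC7A5P2 held 0, against 30391 to 51316 for SLC7A5.

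Of the 9 transporters, 7 had promoter windows in the RefSeq table, 13 in all, each 250 bases before to 50 after a start site. No window was given for SLC7A11 and SLC7A3. TGATGNAA, on either strand, was found in 5 of the 13 windows, 1 each for SLC1A4, SLC1A5, SLC38A1, SLC3A2 and SLC7A1, and in 3.62% of the 35116 windows of all genes. TGACNNNGC was found in 4 of the 13, 1 each for SLC1A5, SLC3A2, SLC7A1 and SLC7A5, and in 13.3% of all windows. The 13 windows are not independent, since some start sites of a gene lie close together, and these are matches of letters only.

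Lists of genes with related roles are described by their counts of calls and medians, which stand beside 7.90% called and a median of -0.000135 over all genes tested. The share called was 28.4% among genes with at least the counts of SLC7A3, and several listed genes had such counts. Other transporters of amino acids at the plasma membrane gave no call. Of 32 listed genes 19 were tested and edgeR called 0 of them (3 at an unadjusted p below 0.05), as did DESeq2. Their median log2 fold change was 0.01. The highest levels per length were those of SLC6A6, the taurine transporter (32.2 CPM per kb, log2 fold change -0.02), SLC7A8, the light chain of LAT2 (22.7 CPM per kb, 0.10, edgeR adjusted p = 0.0692), and SLC7A6, a light chain of the y+L system (10.01 CPM per kb, -0.00392). None of these reached the level of SLC38A1, the lowest of the 5 leading transporters.

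Carriers of lysosomes and mitochondria included 3 genes that fell, of 17 tested, and 0 that rose, with a median log2 fold change of -0.05. SLC36A4, a proton-assisted amino acid transporter, fell by 0.28 on the log2 scale (edgeR adjusted p = 0.0182). SLC25A13, the mitochondrial aspartate and glutamate carrier, fell by 0.21 (edgeR adjusted p = 0.00183), and SFXN1, a mitochondrial serine transporter, fell by 0.17 (edgeR adjusted p = 0.0343). SLC25A13 had the highest level per length of the list, at 29.2 CPM per kb, followed by SLC25A38, which imports glycine for heme synthesis (14.2 CPM per kb, log2 fold change -0.00311), and SFXN1 (13.2 CPM per kb).

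Genes of the ATF4 amino acid response moved in both directions. Of 24 listed and tested, 3 rose and 3 fell, and the median log2 fold change was -0.08. ATF4 itself rose from 294 ± 5.11 to 323 ± 2.79 normalized CPM (SD, n = 2 each), a log2 fold change of 0.14 (edgeR adjusted p = 0.0161). ATF5, a related factor, rose by 0.33 (edgeR adjusted p = 0.0158) and SHMT2, the mitochondrial serine hydroxymethyltransferase, by 0.12 (edgeR adjusted p = 0.0293).

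The genes of that list that fell were MTHFD2, an enzyme of mitochondrial folate metabolism (fell by 0.21, edgeR adjusted p = 0.00113), PSAT1, an enzyme of serine synthesis (fell by 0.19, edgeR adjusted p = 0.00183), and CEBPG, a dimer partner of ATF4 (fell by 0.16, edgeR adjusted p = 0.0192). PSAT1 and ATF4 had the highest levels per length of the list (182 and 118 CPM per kb), and XPOT, the tRNA exporter, came next (52.1 CPM per kb, log2 fold change -0.00227). DESeq2 called 3 of the 24.

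Of the amino acid sensing genes, those of mTORC1 and GCN2 signaling, 33 were tested, of which 1 rose and 3 fell, with a median log2 fold change of -0.02. MLST8, a subunit of mTORC1, rose by 0.30 on the log2 scale (edgeR adjusted p = 0.0212). FLCN, the folliculin that acts on Rag GTPases, fell by 0.29 (edgeR adjusted p = 0.0172), LAMTOR1, the membrane anchor of Ragulator, fell by 0.24 (edgeR adjusted p = 0.0294), and SESN3, a sestrin, fell by 0.12 (edgeR adjusted p = 0.0301). DESeq2 called 0 of the 33. GCN1, EIF2S1 and CASTOR2 had the highest levels per length (30.6, 23.4 and 19.6 CPM per kb) and log2 fold changes of -0.04, -0.02 and -0.04, and none was called.

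The list of glutathione genes gave 1 call in 12 tested, with a median of -0.03. It is wider than the steps after cystine uptake by SLC7A11 and also holds NFE2L2, KEAP1, SLC33A1 and TXNRD1. GPX4, the peroxidase of membrane lipid peroxides, rose by 0.27 (edgeR adjusted p = 0.00198). It had the highest level per length of the list (49.2 CPM per kb), above TXNRD1 and GSR (41.1 and 39.3 CPM per kb, log2 fold changes -0.07 and -0.06). Of the 20 cytosolic aminoacyl-tRNA synthetases, which charge tRNAs with the amino acids taken up, 2 rose and 0 fell, with a median of 0.05. TARS1 rose by 0.13 (edgeR adjusted p = 0.0168) and FARSA, a subunit of the phenylalanine enzyme, by 0.19 (edgeR adjusted p = 0.0294). TARS1 had the highest level per length (112 CPM per kb), before NARS1 and EPRS1 (84.6 and 65.8 CPM per kb, log2 fold changes 0.04 and 0.04).

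**Figure D4:**
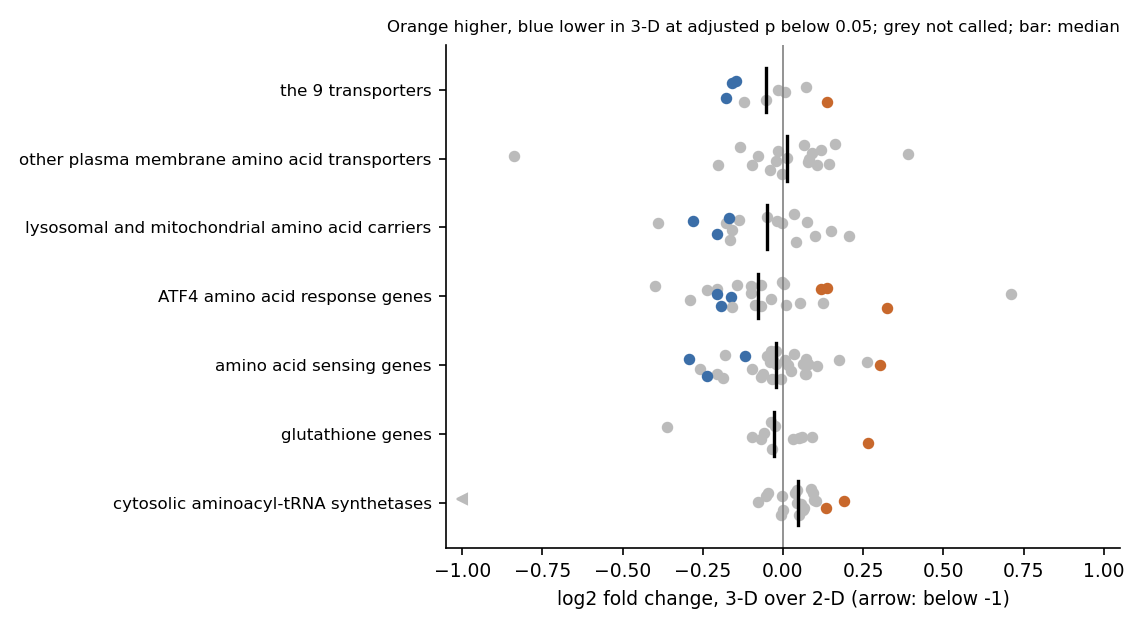
Log2 fold change of 3-D over 2-D (horizontal axis) of every tested gene of the 9 transporters and of 6 lists of related genes, with called genes in orange (higher in 3-D) or blue (lower) and the median of each list as a bar. The medians lay between -0.08 and 0.05, and the arrow at the left edge is VARS1, which was not called and measured 1.54 and 9.96 normalized CPM in 2-D and 2.14 and 1.56 in 3-D.

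The 4 calls among the transporters held to different degrees across the 15 alternative settings. The call of SLC3A2 was kept in all 15, that of SLC38A2 in 13, that of SLC7A5 in 11 and that of SLC7A11 in 8. Scaled by library size alone, 5 transporters were called lower (SLC3A2, SLC38A2, SLC7A11, SLC7A3 and SLC38A1) and SLC7A5 was not called. Over all genes, that scaling called 1879 of 22555 lower.

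**Figure D5:**
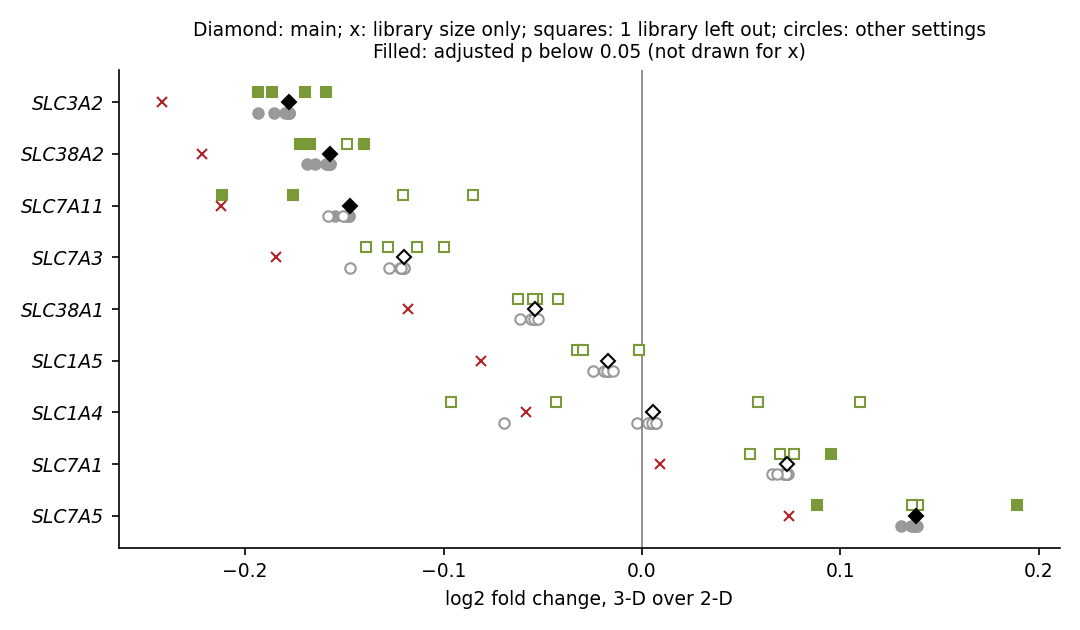
Log2 fold change of 3-D over 2-D (horizontal axis) of each transporter under the reported settings (diamond), library size only (x), with 1 library left out (squares) and under the other alternatives (circles), filled where the adjusted p was below 0.05 (x is not filled). The squares of SLC7A5, SLC7A11 and SLC1A4 were the most widely spread, and library size only moved every gene to the left by about the same amount.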

How the data were processed

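RNA of Elf1 cells was measured by RNA-seq in 2 libraries of 2-D and 2 of 3-D grown cells, made from rRNA-depleted total RNA. The authors trimmed the paired reads (Trim Galore 0.6.3), mapped them to hg38 (HISAT2 2.1.0) and deposited whole counts per gene and library (featureCounts 1.6.4), without normalization. The deposited normalized signal is the count divided by a DESeq2 size factor and was used only for the limma-trend alternative. The authors' columns of log2 fold changes, scores, p-values and adjusted p-values were not used.

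Identifiers were matched to GENCODE release 44 (60295 of 60564, the other 269 holding 0.122% of counts), and 1 listed gene through RefSeq synonyms. Counts were fitted with edgeR 4.0.16 (limma 3.58.1, R 4.3.3) over the whole table, with TMM scaling, its filter on low counts, a quasi-likelihood test in legacy mode with condition alone, and Benjamini-Hochberg adjustment (called: below 0.05). The biological coefficient of variation was 5.10%. Standard errors are the size of the log2 fold change over the square root of F. The procedure was tested on simulated counts, and no detection rate is given here for changes as small as those of the transporters. Totals of 18276147 to 33833778 counts a library set the precision. Counts of replicates differed by more than sampling noise (chi-square per degree of freedom 2.51 in 2-D and 4.16 in 3-D), and none was merged.

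The members and the lists were chosen with earlier results of these data known. Named were all members, their annotated pseudogenes and overlapping or antisense genes, and of every other list the called genes (if over 5, the 3 with the largest change in each direction) and the 3 with the highest level per length, and VARS1 was named after its values were seen. Of the genes this rule names, 1 is not reported here. There were 15 alternatives. The tests were DESeq2 1.42.0, the likelihood ratio test of edgeR, edgeR out of legacy mode and limma-trend (log2, deposited signal plus 1). The scalings were DESeq2 size factors, library size only, and TMM leaving out ribosomal protein, histone and mitochondrial genes. The filters were none and 10 counts per library. The others were a replicate block, thinned 2-D libraries and each library left out. Transcripts were aligned to hg38 with minimap2 2.31-r1302. Promoters are from RefSeq (GRCh38.p14).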

Additional observations from a re-analysis of the deposited data

How the results depend on the processing

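Of 135 alternative log2 fold changes of the 9 transporters, 114 kept their direction and their side of the threshold, and of 135 alternative counts of calls, 100 stayed within 1.5 times. edgeR's likelihood ratio test called 1 transporter (0 higher, 1 lower), 1 lysosomal or mitochondrial carrier, 3 ATF4 response genes, 2 sensing genes and 0 tRNA synthetases. DESeq2 called 1 carrier, 3 ATF4 response genes, 0 sensing genes and 1 tRNA synthetase. Library size only called 0 transporters higher and 5 lower, 1 other plasma membrane transporter and 3 glutathione genes. No filter called 1 other plasma membrane transporter and 4 tRNA synthetases, and limma-trend and thinning called 1 tRNA synthetase each. Over all genes, the likelihood ratio test called 1139 of 22555, library size only 2393 of 22555 and no filter 2486 of 42231. Limma-trend called 1541 of 22555 and thinning 1317 of 21311, so counts of calls moved over all genes as well. Leaving out 1 library called 1 (without 2-D replicate 2) to 5 (without 3-D replicate 1) transporters, 0 to 2 of them higher and 1 to 3 lower. The ranges were 0 to 2 (without 3-D replicate 2) for other plasma membrane transporters, 2 (without either 2-D library) to 5 (without 3-D replicate 1) for carriers, 3 (without 2-D replicate 1) to 9 (without 3-D replicate 1) for ATF4 response genes, 1 and 8 (without the same libraries) for sensing genes, 1 to 2 (without 3-D replicate 1) for glutathione genes and 0 (without 2-D replicate 2) to 4 (without either 3-D library) for tRNA synthetases, with a lone library assumed to vary like the other condition. SLC1A4 reversed with library size only (-0.059), at least 10 counts (-0.0023) and thinning (-0.069), and without 2-D replicate 2 or 3-D replicate 2 (range -0.10 to 0.11). The log2 ratio differences of SLC7A11 over SLC3A2 (-0.053 to 0.11) and SLC1A4 over SLC1A5 (-0.065 to 0.11) also turned with 1 library left out. The cause was not tested. Libraries that share a replicate number did not deviate together (r = -0.07 over 12431 genes), and with the replicate block 4 transporters (1 higher, 3 lower), 0 other plasma membrane transporters, 3 carriers, 8 ATF4 response genes, 4 sensing genes, 1 glutathione gene, 3 tRNA synthetases and 2167 of all genes were called. Counts called over all genes ran from 795 (DESeq2, 10229 genes with an adjusted p) to 2643 (without 3-D replicate 1), against 1782. The few counts of SLC1A4 limit the precision of its values.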
